A study of Mus musculus with 6 samples.

Results

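The miR-30 and miR-26 families were examined in miRNA-Seq of embryonic mouse cardiomyocytes (EMCMs), the heart muscle cells isolated from wild-type hearts at day E16.5. The members were the rows of the deposited table named miR-30 or miR-26, with any letter, hairpin copy or strand, and they were 16 of 689 rows. The miR-30 family held 11 of them and the miR-26 family 5. Counted by strand, 7 were main strands and 9 were passenger strands, which the table writes with an asterisk.

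The series has 6 samples in 2 groups. In the static group, 3 samples of EMCMs were kept without stretch for 24 h on collagen-coated flexible plates. In the stretch group, 3 samples on the same kind of plate were stretched cyclically by 16% at 1 Hz for 24 h. Both groups are wild type and carry no transgene, and the labels give the strain background as Swiss Webster. The value used here is the authors' mean abundance of each miRNA over all samples, so it covers stretched and static EMCMs together and has no SD, n or test. No value below separates stretch from static, and differences between members are descriptions whose error is unknown.

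A miRNA hairpin is cut by Drosha and Dicer into a duplex of 2 strands. An Argonaute protein usually keeps one of them, the main strand or guide, and the other, the passenger strand, is usually degraded. Here main and passenger name the rows without and with the asterisk, and which strand Argonaute kept in these cells was not measured. The kept strand finds its mRNA targets mainly through the seed, bases 2 to 8 from its 5′ end, so both strands of a duplex have different targets. The miR-30 family is known in the heart for targeting mRNAs of matrix growth factors such as Ctgf, and miR-30a for targeting Beclin 1, an autophagy protein. The miR-26 family is known for targeting Ezh2, the methyltransferase of the Polycomb repressive complex, and its hairpins lie within genes of small phosphatases.

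Mature sequences from RefSeq (GRCm38.p6) matched 12 of the 16 rows, 5 main strands and 7 passenger strands. miR-30b, miR-30b*, miR-30d and miR-30d* had no entry. In the matched rows the main name was the 5p arm and the asterisk name the 3p arm. They are shown with the seed in capitals, 5′ to 3′, because some values below are summed by seed.

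The matched main strands of the miR-30 family shared the seed GUAAACA.
miR-30a: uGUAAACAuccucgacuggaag
miR-30c: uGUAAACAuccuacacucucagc
miR-30e: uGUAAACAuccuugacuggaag

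The matched passenger strands of the miR-30 family carried 2 other seeds, UUUCAGU in miR-30a* and miR-30e*, and UGGGAGA in both copies of miR-30c*.
miR-30a*: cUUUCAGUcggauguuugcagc
miR-30e*: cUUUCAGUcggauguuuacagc
miR-30c-1*: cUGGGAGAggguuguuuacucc
miR-30c-2*: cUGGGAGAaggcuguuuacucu

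The main strands of the miR-26 family shared the seed UCAAGUA.
miR-26a: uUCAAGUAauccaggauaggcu
miR-26b: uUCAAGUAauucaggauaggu

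Their passenger strands had the seed CUGUUCU in miR-26a-2* and miR-26b*, while miR-26a-1* had CUAUUCU.
miR-26a-1*: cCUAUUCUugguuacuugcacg
miR-26a-2*: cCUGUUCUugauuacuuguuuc
miR-26b*: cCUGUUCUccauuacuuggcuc

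All 5 matched main strands began with U and all 7 matched passenger strands with C. Of the first 4 bases, 1 was G or C in each main strand, and 1 to 3 were in the passenger strands. miR-30a* and miR-30e* had 1, as the main strands did. The strands were 21 to 23 bases long.

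Positions are counted from 1 at the 5′ end. miR-30a and miR-30e differed by 1 substitution, C13U from miR-30a to miR-30e. Their passenger strands differed by 1 substitution as well, G18A from miR-30a* to miR-30e*, and shared a run of 17 bases. miR-26a and miR-26b differed by C11U and C21U over the 21 bases compared. miR-30c-1* and miR-30c-2* differed by G9A, U12C and C22U. No pair of matched members on the same strand shared a run of 18 bases, the shortest tag kept in the study's methods. How many mismatches the mapping allowed is not given in the sources used here, so reads of miR-30a and miR-30e, and of their passenger strands, may be split between the names with error.

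The hairpins of the matched members were placed on GRCm38 with the GENCODE annotation. Mir30a (chr1:23272269-23272339, plus strand) overlapped no other gene. Mir30c-2 (chr1:23291701-23291784, plus strand) lay 19361 bases further on, within an exon of the lincRNA Gm27028. Mir30c-1 (chr4:120769534-120769622, minus strand) and Mir30e (chr4:120772606-120772697, minus strand) were 2983 bases apart, both in introns of Nfyc, which encodes a subunit of the NF-Y transcription factor. Mir30f was annotated on the opposite strand over the whole of Mir30e.

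The miR-26 hairpins lay in genes of the C-terminal domain small phosphatases. Mir26b (chr1:74394310-74394394, plus strand) was in an intron of Ctdsp1, and Mir26a-1 (chr9:119031796-119031885, plus strand) was in an intron of Ctdspl. Mir26a-2 (chr10:126995530-126995613, plus strand) was in an intron of Ctdsp2, except for its last base in an annotated exon. miR-30c and miR-26a each have 2 hairpins with 1 mature main strand, so the table has 1 row for that strand and 1 row per hairpin for the passenger strand.

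Hairpins of the member with the highest passenger share, of its nearest relative and of the member with the lowest show both strands, here in capitals.
Mir30e: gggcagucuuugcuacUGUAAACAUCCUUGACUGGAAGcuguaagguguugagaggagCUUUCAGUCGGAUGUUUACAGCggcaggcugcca
Mir30a: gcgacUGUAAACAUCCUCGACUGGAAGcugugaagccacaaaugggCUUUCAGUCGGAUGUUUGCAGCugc
Mir26a-1: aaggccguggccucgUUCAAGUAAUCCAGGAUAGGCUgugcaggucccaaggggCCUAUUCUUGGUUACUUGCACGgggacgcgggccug

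Shares below are percentages of the miRNA reads in the table, taken as 2 to the power of the authors' mean abundance over the sum of all rows. How evenly the libraries captured each sequence was not measured, so shares and folds of reads need not equal those of molecules. The cardiomyocyte label was set beside marker miRNAs. The cardiomyocyte markers miR-208b, miR-133a, miR-208a-3p, miR-1a, miR-499 and miR-133b held 1.5% of the reads in sum. Most of that sum was miR-208b, at 1.18%. The smooth muscle markers miR-143 and miR-145 held 13.5%, the endothelial miR-126 strands 0.479%, and the fibroblast markers miR-199a and miR-214 0.441%. Of the smooth muscle markers, miR-143 held 13.4% and miR-145 only 0.0697%. Of the endothelial strands, miR-126-5p held 0.466% and miR-126-3p only 0.013%. The leukocyte markers miR-142 and miR-223 held 0.00812%, the red blood cell markers miR-144 and miR-451 0.000132%, and the liver marker miR-122 6.03e-05%. The table used here has no row for the neuronal miR-124. Markers of cardiomyocytes were therefore present beside abundant miR-143, a low miR-145, and markers of fibroblasts and endothelium. The cardiomyocyte sum was above the fibroblast and endothelial sums only through miR-208b, and without it would have been below both. The part of other cell types in the members' values was not tested. The most abundant row was miR-22, with 20.6% of the reads.

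The 2 families held 4.05% of the miRNA reads, and 3.63% came from miR-26a alone. The miR-26 family held 3.66% and the miR-30 family 0.383%. miR-26a made up 99.2% of its family, whereas the most abundant miR-30, miR-30b, made up 34% of its own. miR-26a was thus the single abundant member, and the reads of the miR-30 family were spread over several names and both strands.

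Among main strands, miR-26a had a mean abundance of -4.79 on the log2 scale and was rank 7 of 689. miR-30b followed at 0.13% of the reads (log2 -9.59, rank 55). miR-26a was 28-fold higher than miR-30b, and no other neighbours among the members were so far apart.

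miR-30d held 0.0543% (log2 -10.85, rank 82), miR-30a 0.0341% (log2 -11.53, rank 94) and miR-30c 0.0284% (log2 -11.79, rank 102). miR-26b held 0.026% (log2 -11.91, rank 108), 140-fold less than miR-26a with which it shares its seed. miR-30e was the lowest main strand, at 0.0087% (log2 -13.49, rank 154). The order of the miR-30 main strands was therefore 30b, 30d, 30a, 30c and 30e, over a 14.9-fold range. The neighbours miR-30a and miR-30c differed by 1.2-fold and miR-30c and miR-26b by 1.09-fold, and no spread is known against which to set these steps.

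Among passenger strands, the order was another. miR-30e* was the highest, at 0.0544% of the reads (log2 -10.85, rank 81), and miR-30a* came next at 0.0408% (log2 -11.26, rank 89). They were the fifth and the seventh most abundant of the 211 rows written with an asterisk. The miR-30 name with the lowest main strand thus had the highest passenger strand, at the level of the main strand of miR-30d.

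miR-30d* held 0.0157% (log2 -12.65, rank 130). The copies of miR-30c*, from different chromosomes, held 0.00868% for miR-30c-1* (log2 -13.50, rank 155) and 0.00593% for miR-30c-2* (log2 -14.05, rank 180), a 1.46-fold difference. miR-30b* held 0.00193% (log2 -15.67, rank 251) and was the lowest passenger strand of the miR-30 family, 28.2-fold below miR-30e*. The name with the highest miR-30 main strand therefore had the lowest passenger strand.

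The miR-26 passenger strands were lower. miR-26b* held 0.00216% (log2 -15.50, rank 239), miR-26a-2* 0.00057% (log2 -17.43, rank 325) and miR-26a-1* 0.000361% (log2 -18.09, rank 355). miR-26b* was above the copies of miR-26a*, in the reverse order of the main strands. All 9 passenger rows of the families were above the median of the passenger rows of the table (log2 -19.57).

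**Figure D1:**
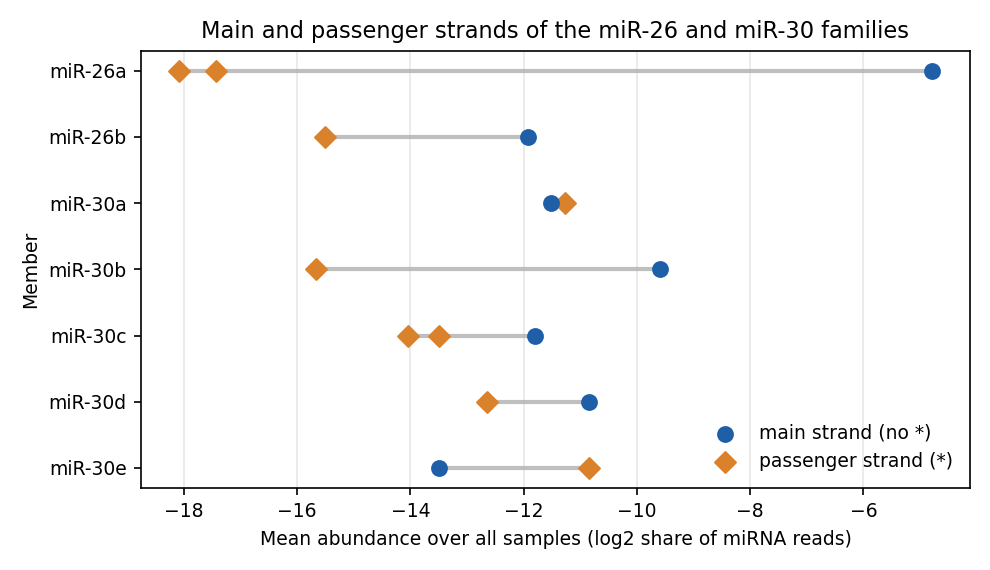
Mean abundance of the 16 members on the log2 scale (x axis, log2 share of miRNA reads, the authors' mean over all samples) by name, with circles for main and diamonds for passenger strands. The diamond lies to the right of the circle in miR-30e and miR-30a and to its left in the other 5 names, by the widest distance in miR-26a.

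**Figure D2:**
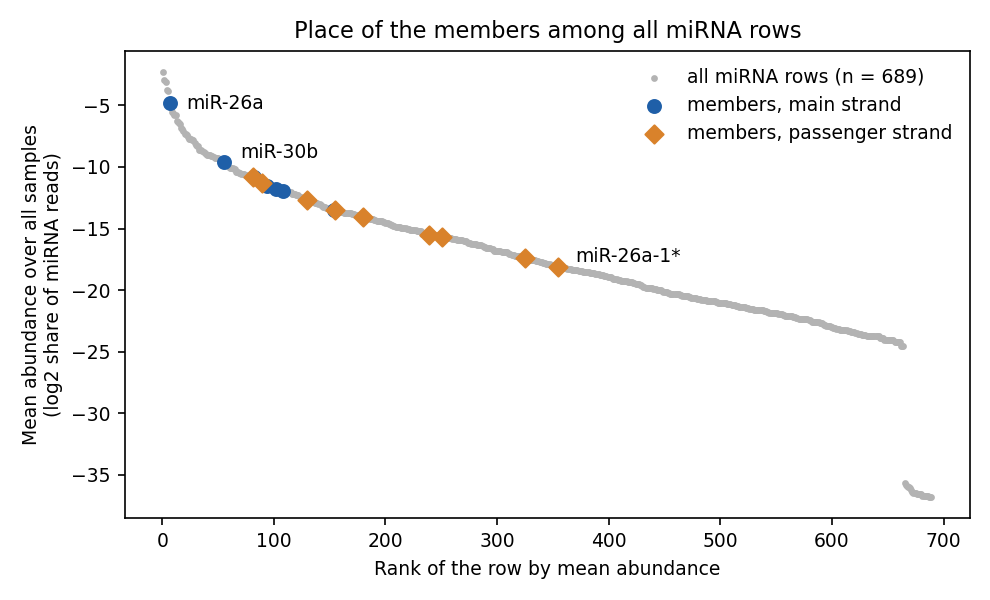
Mean abundance (y axis, log2 share of miRNA reads) of all 689 rows in order of abundance (x axis, rank), with members in colour. miR-26a stands at rank 7, the other members run from rank 55 to rank 355, and no member is among the 25 rows below -35.

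The strands were then compared within each name, with the passenger rows of both copies added for miR-30c and miR-26a. These are ratios of reads between different sequences, whose capture in the libraries was not measured. In miR-30e the passenger strand was 6.25-fold above the main strand, a log2 ratio of main over passenger of -2.64. Passenger reads made up 86.2% of the reads of miR-30e. In miR-30a the passenger strand was 1.2-fold above the main strand (log2 ratio -0.26) and made up 54.5%. These were the 2 of 7 names in which the asterisk strand was the higher one.

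In miR-30c the main strand was 1.94-fold above the sum of its passenger rows (log2 ratio 0.96), which made up 34% of the reads. In miR-30d it was 3.47-fold above (log2 ratio 1.79), with 22.4% passenger reads. In miR-30b it was 67.4-fold above (log2 ratio 6.07), with 1.46% passenger reads. The miR-30 names thus ran from mostly passenger to nearly all main strand.

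In miR-26b the main strand was 12-fold above its passenger strand (log2 ratio 3.59), with 7.68% passenger reads. In miR-26a it was 3901-fold above the sum of both copies (log2 ratio 11.93), with 0.0256% passenger reads. Over the family, passenger strands were 33.3% of the miR-30 reads and 0.0845% of the miR-26 reads. Both shares depended on the most abundant main strand. Without the main row of miR-30b the first was 50.4%, and without the main row of miR-26a the second was 10.6%. The passenger rows of those names were kept in both. With all rows of miR-26a left out, only miR-26b remains, with its 7.68%.

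**Figure D3:**
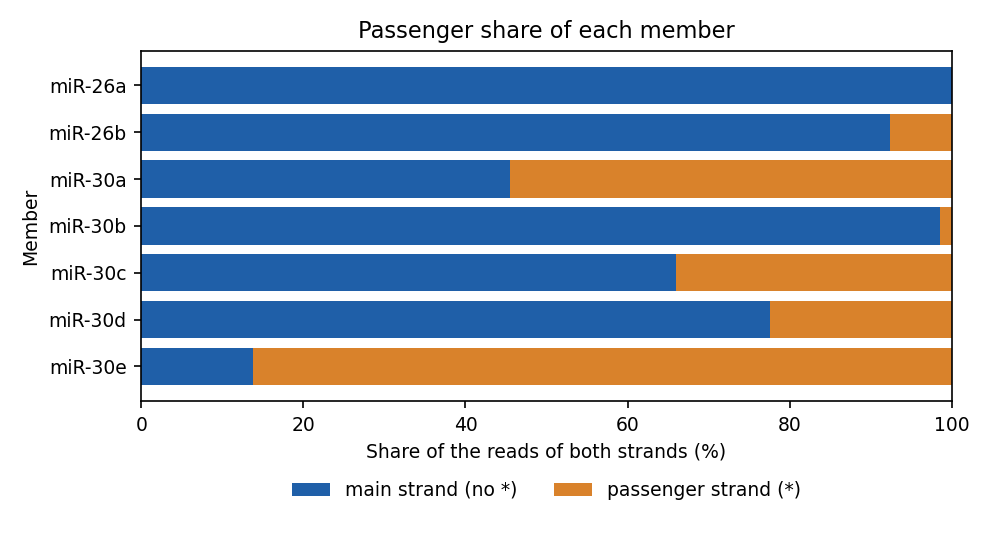
Main and passenger strands as shares of the reads of each name (x axis, percent, adding to 100), with copies added. The passenger share runs from 0.0256% in miR-26a to 86.2% in miR-30e.

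Read by seed, the strands of the miR-30 family carried different amounts. The passenger seed UUUCAGU of miR-30a* and miR-30e* held 0.0952% of the miRNA reads. That sum leaves out miR-30b* and miR-30d*, whose seeds are unknown here for lack of a sequence. The main seed GUAAACA held 0.0711% over miR-30a, miR-30c and miR-30e, a sum that leaves out miR-30b and miR-30d, the most abundant main strands of the family, for lack of a sequence. The seed UGGGAGA of both miR-30c* copies held 0.0146%. Over all 11 rows of the family, main strands held 0.255% and passenger strands 0.127%, so the main strands were the higher in sum.

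Among the sequences of the RefSeq table used here, the seed UUUCAGU was carried only by miR-30a* and miR-30e*, and GUAAACA also by miR-384-5p. Since miR-30b* and miR-30d* have no entry there, this does not show that the seed is limited to miR-30a* and miR-30e*. In the miR-26 family, the seed UCAAGUA held 3.66% of the reads and no other mature sequence of that table carried it. The seed CUGUUCU of miR-26a-2* and miR-26b* held 0.00273%, and CUAUUCU of miR-26a-1* 0.000361%. miR-26a-1* was thus apart from the other miR-26 passenger strands in its seed and was the lowest of them.

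Other names with a row both with and without the asterisk show where these ratios stand. For 183 such names the median log2 ratio of main over passenger was 5.34, with quartiles of 2.59 and 8.63. The passenger strand was the higher in 14 of them, or 7.65%. Of the 183 names, 1 had a lower ratio than miR-30e, 10 lower than miR-30a, 22 lower than miR-30c and 32 lower than miR-30d. The one below miR-30e was miR-455 (log2 ratio -4.54), which was chosen here after its value was seen. These miR-30 names therefore lay in the lower part of the range of names paired by an asterisk. Names given as 5p and 3p were not in these counts. The asterisk already labels a strand as the passenger, so these counts describe only names written that way. They are not a background for all hairpins.

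For miR-26b, 63 of the 183 names had a lower ratio, for miR-30b 101 and for miR-26a 164. miR-30b was thus near the median, and miR-26a had less passenger strand than most. The median over the 5 miR-30 names was 0.96 on the log2 scale, and the miR-26 names stood at 3.59 and 11.93.

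Families with several hairpins and a shared main seed were set beside them. In the 9 names of let-7 with miR-98 the log2 ratio ran from 0.56 to 10.58 with a median of 5.93, in the 4 names of miR-181 from 2.10 to 11.38 with a median of 7.72, and in the 3 names of miR-29 from 6.92 to 10.33 with a median of 9.19. None of these 16 names had a passenger strand above its main strand. These differences between families were not tested, since the values have no replicates.

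**Figure D4:**
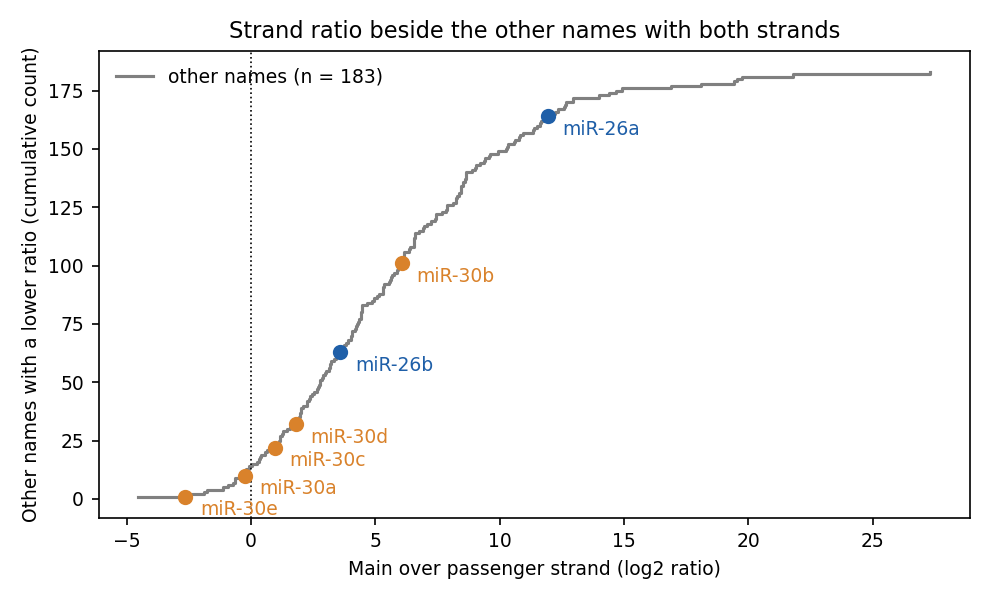
Log2 ratio of main over passenger strand (x axis) for the 7 member names (points) on the cumulative count of the 183 other names (y axis, grey line), with the dotted line at equal strands. miR-30e and miR-30a lie left of that line, miR-30c and miR-30d near the foot of the curve, and miR-26a near its top.

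Passenger strands of neighbouring hairpins differed in level. miR-30e and miR-30c-1 lie in the same host gene, Nfyc, and miR-30e* was 6.26-fold above miR-30c-1*. miR-30a and miR-30c-2, on chromosome 1, showed the same order, with miR-30a* 6.89-fold above miR-30c-2*. The main strand of miR-30c cannot be divided between its hairpins, so a strand ratio for each copy was not computed, and a difference in the level of the hairpins cannot be told apart from one in strand use. By sequence, the passenger strands at the top of the order came from the hairpins that differ by 1 base in each strand, Mir30a and Mir30e, although the main strand of miR-30a was 3.92-fold above that of miR-30e.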

How the data were processed

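RNA from EMCMs was extracted with RNeasy columns, and TruSeq Small RNA libraries were sequenced on a HiSeq2500. Per the study's methods, the authors trimmed and filtered reads, kept tags of at least 18 nt, mapped them with Bowtie2 to the mouse genome, added hits per gene ID and compared groups with edgeR. The submitters' processing notes name Bowtie2 and DESeq. Versions, genome build and mismatch limit are not given in the sources used here. The methods give more samples per group than the 3 of the labels, and another mouse background (CD1).

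The authors deposited 1 mean abundance per miRNA, a log2 share of all miRNA reads. The base was read from the table: raising 2 to each of the 689 values and adding gave 0.995, while base 10 gave 0.00756. The kind of mean is not given. The other 4 columns hold the authors' own comparison of stretch with static (log2 fold change, signed fold change, P value and FDR) and were not used. The values used have no counts, so the depth per sample is unknown, and the test planned for counts was not run. 25 rows lie below -35, and the next is -24.52. No member is among them, nor among the 30 rows with values identical to another.

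Shares were divided by the sum of the table. Names with and without an asterisk were paired by number and letter, and copies were added on the linear scale. Simulated data with set strand ratios gave those ratios back, but used the same pairing of names, so the pairing itself was not tested. Alternatives were other denominators, the highest copy or the mean of copies, equal weight per name, a minimum level and names given as 5p and 3p. All members are named, besides the most abundant miRNA, marker miRNAs and genes over the hairpins. The members and lists were chosen with earlier results of these data known. Positions are from GENCODE vM21 and RefSeq on GRCm38, and no coordinate comes from the authors' files. Python 3.11.15, numpy 2.4.6, pandas 2.3.3 and matplotlib 3.10.9 were used.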

Additional observations from a re-analysis of the deposited data

How the results depend on the processing

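The alternatives for the strand ratios changed how copies were counted, so they touched only miR-30c and miR-26a. They could only lower the passenger level of those names, so no direction of a strand ratio could turn. The ratios of miR-30e and miR-30a, where the asterisk strand was the higher, were put to no other setting. With identical rows counted once, the miR-30 family held 0.384% and the miR-26 family 3.68% of the reads, and without miR-22 they held 0.482% and 4.61%. With rows below -24 left out, both shares were as before. With only the highest copy, the log2 ratio of main over passenger was 1.71 for miR-30c and 12.64 for miR-26a, and with the mean of the copies it was 1.98 and 12.97, since fewer passenger reads are then counted. The passenger share as a median over names was 34% for miR-30 and 3.85% for miR-26. Without the most abundant main strand of the family, but with the passenger rows of that name kept, it was 50.4% and 10.6%. The median log2 ratio of the other names was 6.10 for names whose strands add to over -18 on the log2 scale, and 4.36 with 70 pairs of 5p and 3p names added, higher over lower. Taken in that way, those pairs could not count as names with the passenger strand higher. Ranks of 15 members moved by at most 4 places with identical rows counted once.

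No paired analysis was possible because every number used is a mean over all samples. For the same reason leaving out a replicate, the test on counts, its other normalization and its filter were not run. Without counts or replicates, the lowest members (miR-26a-1* and miR-26a-2*) have the same unknown error as the rest, and steps between neighbouring ranks cannot be judged.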
